A study of Mus musculus with 37 samples.

Results

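The transcripts described here are those of 10 genes of transforming growth factor beta (TGF-beta) signalling, chosen by symbol from the 21975 genes of the deposited tables. They are the ligands Tgfb1, Tgfb2 and Tgfb3, the receptors Tgfbr1, Tgfbr2 and Acvrl1, and the intracellular Smads Smad2, Smad3, Smad4 and Smad7. All 10 were found in the tables, and all 10 passed the filter on low counts in both hemispheres. They were chosen as a pathway linked to epilepsy after albumin enters the brain, not from their values in these libraries.

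The libraries hold RNA of astrocytes taken from the hippocampus of mice 4 months after controlled cortical impact (CCI), a contusion delivered to the exposed cortex, or after sham surgery. Injured mice in which video and EEG recording showed repeated seizures were PTE+ (post-traumatic epilepsy), and injured mice that did not develop epilepsy were PTE-. The hippocampi on the injured (ipsilateral) and the opposite (contralateral) side gave separate libraries. On the contralateral side 5 PTE+, 10 PTE- and 5 sham mice gave a library. On the ipsilateral side 4 PTE+, 8 PTE- and 5 sham mice did, and 17 of the 20 mice gave both. All mice were adult wild-type males, sham mice received a craniectomy and electrodes but no impact, and the strain is labelled CD31 but named CD1 in the methods. Cells were bound to magnetic beads through ACSA-2, an astrocyte surface antigen, and cDNA was amplified from small amounts of RNA with a SMART-Seq V4 kit. A library therefore holds every cell that the beads carried along, and fewer cells of a type cannot be told apart from less RNA per cell.

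TGF-beta ligands are secreted in a latent form, held in the matrix by latent-ligand binding proteins, and act once they are released. The active ligand binds the type II receptor encoded by Tgfbr2, which activates the type I receptor encoded by Tgfbr1 or, in endothelial cells, also that encoded by Acvrl1 (ALK1). The Tgfbr1 product phosphorylates the proteins of Smad2 and Smad3, which enter the nucleus with that of Smad4, while Smad7 encodes an inhibitor that targets the receptor. In astrocytes the pathway is known from work on blood albumin, which binds TGF-beta receptors after the blood-brain barrier opens.

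Total counts ranged from 25371887 to 55333329 per contralateral library and from 36925501 to 59846479 per ipsilateral library. The 10 astrocyte marker genes checked, among them Gfap, Aqp4 and Slc1a3, were detected in every group, with a summed level of 13170 to 21750 TPM contralaterally and 5941 to 22031 TPM ipsilaterally. TPM is a share of all transcripts that is corrected for transcript length, so that genes can be set side by side. The 11 endothelial markers summed to 425 to 5755 TPM in contralateral and 50.8 to 2269 TPM in ipsilateral libraries, and the 11 microglial markers to 27.1 to 1349 and 73.4 to 1128 TPM. Endothelial and microglial RNA was thus present in every library, at levels that differed more between libraries than the astrocyte sum did.

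Members of the pathway were missing altogether from some libraries. Of the 370 values (10 genes in 37 libraries), 28 lay at or below 3 counts, taken here as the counting limit, and these came from 12 libraries. The 12 libraries had a median of 12517 genes with at least 1 count, against 14932 in the other 25. The ipsilateral library of PTE- mouse a8_11, with the fewest detected genes (9020), had 6 of the 10 genes at the limit. The ipsilateral libraries of sham mouse a9_9, PTE- mouse a8_14 and PTE+ mouse a9_19, and the contralateral library of PTE- mouse a9_14, had 3 each. Tgfb3 was at the limit in 8 libraries, Acvrl1 and Smad3 in 4 each, and Tgfb1 and Smad4 in none. Such gaps were common among other genes of similar abundance. Of the genes with a median between 1000 and 10000 counts, 28.5% were at or below 3 counts in at least 1 contralateral library and 49.2% in at least 1 ipsilateral library. Of the 5 members in this range on each side, 2 contralaterally and 4 ipsilaterally had such a library. Of the genes with a median between 100 and 1000 counts, 75.3% and 83.7% had one, as had 4 of 4 members there on each side. The kit amplifies cDNA and no molecular identifiers are named, so this limit covers counting error only.

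**Figure D1:**
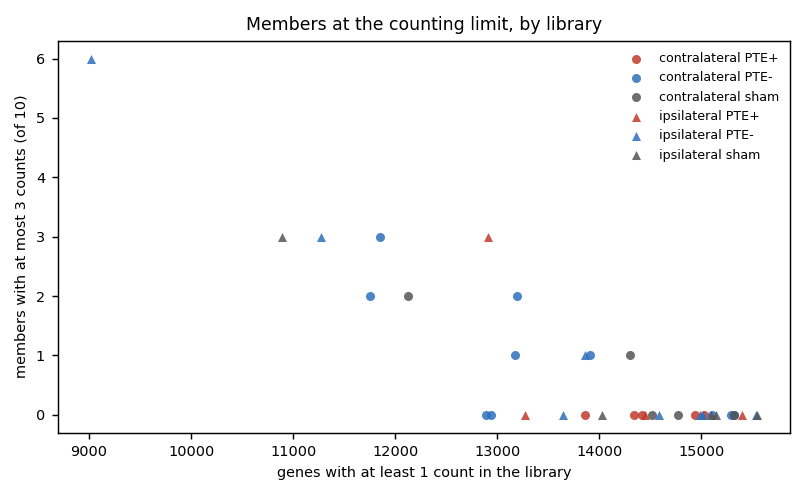
Number of the 10 genes with at most 3 counts (y axis) against the number of genes with at least 1 count (x axis) in each of 37 libraries, coloured by group (circle, contralateral; triangle, ipsilateral). Libraries with the fewest detected genes, led by the 1 with 9020, hold most of the values at the limit.

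Tgfb2 was the most abundant ligand (chromosome 1, 186622792 to 186705989, minus strand, GRCm38). Its median over the 37 libraries was 27.8 TPM, against 4.02 TPM for Tgfb3 (chromosome 12, 86056745 to 86079041, minus strand) and 1.62 TPM for Tgfb1 (chromosome 7, 25687002 to 25705077, plus strand). Tgfb2 exceeded Tgfb1 in 35 of 37 libraries and, on average over its hippocampi, in 20 of 20 mice. The mean difference per mouse was 3.14 ± 0.84 on the log2(TPM + 1) scale (SD, n = 20; sign-flip permutation p = 1e-05, the smallest that 100000 resamples can give). Tgfb2 also exceeded Tgfb3 in 34 libraries and in 19 of 20 mice (2.41 ± 1.32, permutation p = 1e-05). Tgfb3 exceeded Tgfb1 in 24 libraries and 14 mice, with a smaller difference of 0.73 ± 1.02 (permutation p = 0.00466). The order of the ligands by median was thus Tgfb2, Tgfb3 and Tgfb1, with the lower 2 not separated in every mouse. These pairs and those of the receptors and Smads below were written in the order seen, so their p values only describe it.

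Acvrl1, the receptor best known from endothelial cells, had the highest level of the 3 receptor genes (chromosome 15, 101128522 to 101145336, plus strand). Its median was 43.4 TPM, against 13.8 TPM for Tgfbr2 (chromosome 9, 116084293 to 116175360, minus strand) and 3.01 TPM for Tgfbr1 (chromosome 4, 47353222 to 47414931, plus strand). Acvrl1 also had a wide range, from 0 in 4 libraries to 153 TPM. It exceeded Tgfbr2 in 30 of 37 libraries and 15 of 20 mice (difference 1.21 ± 2.15 on the log2(TPM + 1) scale, permutation p = 0.0218). Tgfbr2 exceeded Tgfbr1 in 32 libraries and 18 mice (1.71 ± 1.47, permutation p = 8e-05), so that the type I receptor that acts through Smad2 and Smad3 was the lowest of the 3.

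Smad4, the partner shared by all signalling Smads, had the highest level of the 10 genes, with a median of 51.8 TPM, and exceeded 5 TPM in 36 of 37 libraries. Smad2 followed among the Smads with 27.4 TPM, then Smad3 with 4.53 TPM (chromosome 9, 63646767 to 63757994, minus strand) and the inhibitory Smad7 with 1.42 TPM. Smad4 exceeded Smad2 in 30 libraries and 18 mice (1.19 ± 1.40 on the log2(TPM + 1) scale, permutation p = 0.00121). Of the receptor-activated pair, Smad2 exceeded Smad3 in 35 libraries and 18 mice (2.11 ± 1.32, permutation p = 3e-05). Smad3 exceeded Smad7 in 30 libraries and 19 mice (0.98 ± 0.80, permutation p = 2e-05). All 9 pairs compared kept an adjusted p under 0.05 (Benjamini-Hochberg over the 9 pairs, largest 0.0218). The order of levels was planned without a test, and the pairs were written in the order seen in these libraries. Their p values therefore describe that order and are not separate evidence for it. Tgfb2 and Smad2 lay next to each other in the order, at 27.8 and 27.4 TPM, with ranges that overlapped almost throughout (0 to 68.7 and 0 to 77.9 TPM).

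**Figure D2:**
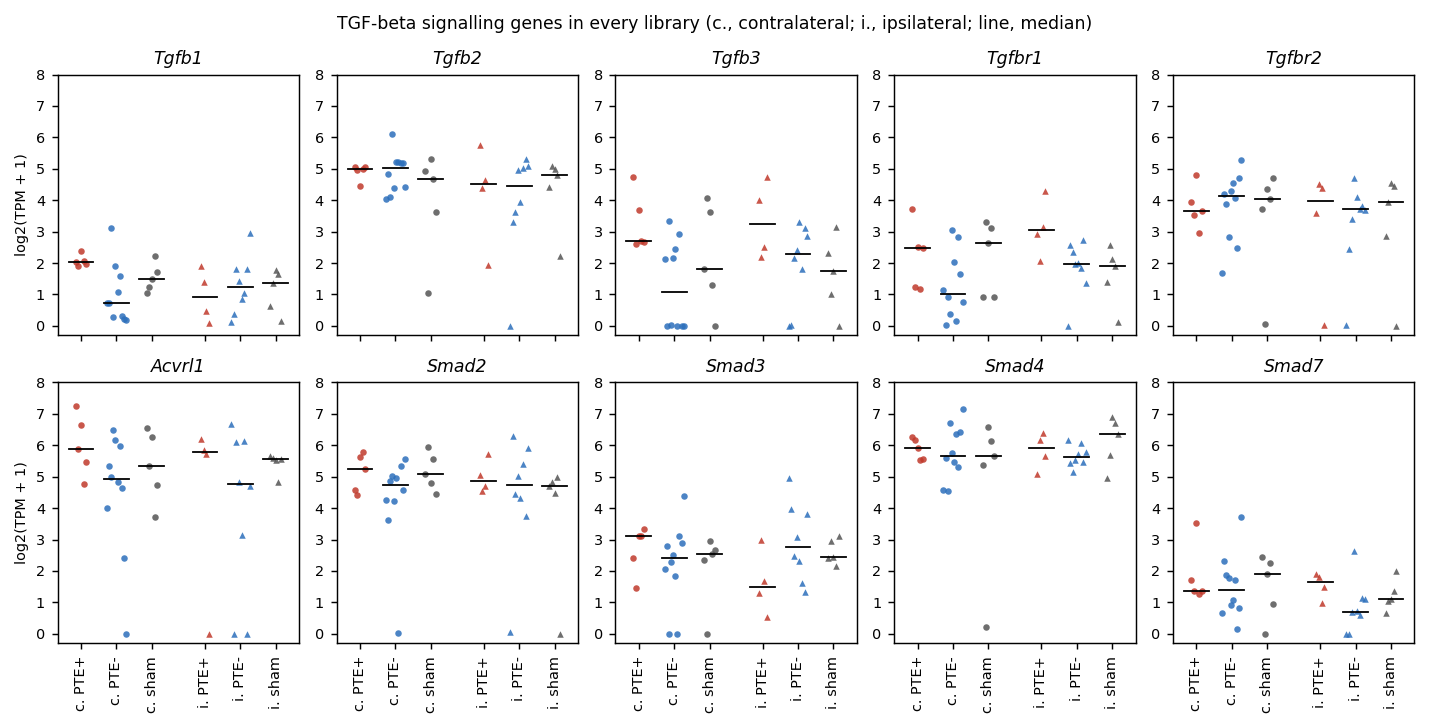
Level of each gene as log2(TPM + 1) in every library (y axis), by hemisphere and group (x axis), with the median of each group as a line. Smad4, Acvrl1, Tgfb2 and Smad2 lie above the other genes, and for no gene do the values of 2 groups of a hemisphere separate.

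None of the 10 genes passed the test in any comparison between groups. Genes were compared by edgeR's quasi-likelihood F test in a fit of the 3 groups of a hemisphere, and p was adjusted by the Benjamini-Hochberg method across every gene in the fit (14642 contralateral and 14903 ipsilateral genes). Across the 6 comparisons the smallest unadjusted p of the 60 edgeR tests was 0.100, and the smallest adjusted p was 0.9998. The 0 of 10 genes at an unadjusted edgeR p under 0.05 stood beside few calls among all genes. The share of all genes at that p was 2.21% for contralateral PTE+ against PTE-, 1.54% for PTE- against sham and 1.23% for PTE+ against sham. Ipsilaterally it was 1.75%, 1.58% and 1.66% in the same order. Of all genes, 1 passed the adjusted threshold of 0.05 by edgeR in contralateral PTE+ against PTE- (0.00683%) and 0 (0.0%) in the other 5 comparisons, where DESeq2 called 19 to 63 genes, and 0 members passed under either tool. No member met the criteria of the study (described with Ltbp4 further on) with either tool. Applied to edgeR p, 1.26%, 0.751% and 0.512% of all genes met them contralaterally and 0.503%, 0.986% and 0.49% ipsilaterally, in the order of comparisons above. Applied to p of DESeq2, the tool the study used, the shares were 2.22%, 1.67% and 0.848%, and 1.59%, 2.18% and 0.777%. By exact permutation of the samples, 2 of 60 tests of members had p under 0.05, both contralateral. The share of all genes with such an exact p was 4.38%, 3.3% and 3.64% contralaterally and 2.15%, 2.89% and 3.36% ipsilaterally. In PTE+ against PTE-, 6 of the 10 genes had a positive log2 fold change contralaterally and 7 ipsilaterally, beside 46.7% and 49.3% of all genes. Their medians were 0.32 and 0.13, beside -0.05 and -0.01 over all genes. In PTE+ against sham 9 were positive contralaterally and 4 ipsilaterally, beside 52.5% and 50.1% of all genes. In PTE- against sham 5 were positive on each side, beside 55.3% and 51.5% of all genes. In contralateral PTE+ against sham the smallest edgeR p was 0.560. Smad3 and Smad7 were at the counting limit in sham library a8_16 of that comparison, and Tgfb2 turned to -0.0156 without it. The count of signs without that library is not given. The libraries were variable, with a common biological coefficient of variation of 1.32 contralaterally and 1.40 ipsilaterally. The 95% intervals of the log2 fold changes were correspondingly wide, so that changes of several fold in either direction were not detectable for most members at this spread. The 3 comparisons of a hemisphere share their libraries and are not independent of each other.

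**Figure D3:**
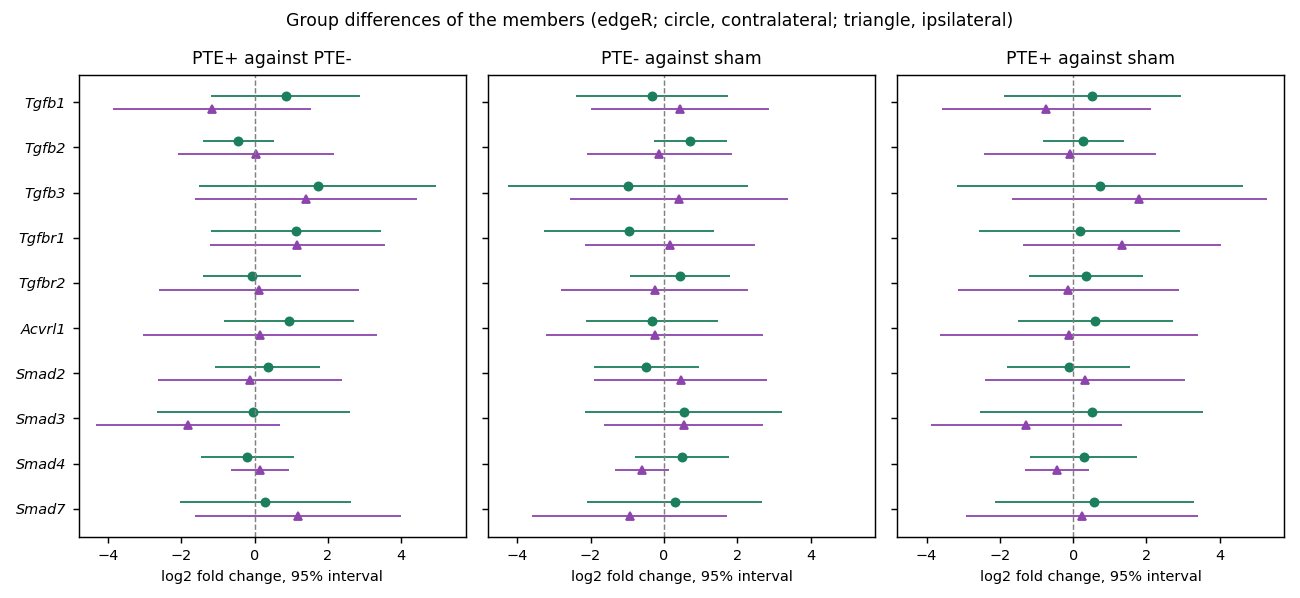
Fitted log2 fold change of each gene (x axis) with its 95% interval for the 3 group comparisons of each hemisphere (circle, contralateral; triangle, ipsilateral). Every interval includes 0, and those of Smad4 in the ipsilateral hippocampus are among the narrowest.

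Between contralateral PTE+ and PTE- libraries, Tgfb3 and Acvrl1 had the smallest p. Tgfb3 stood at 5.07, 5.40, 5.46, 11.8 and 25.99 TPM in the 5 PTE+ libraries. In the 10 PTE- libraries it ranged from 0 to 9.10 TPM with a median of 1.70, and 4 of them held no count and a further 1 held 4 counts. Every PTE+ library thus held Tgfb3, at levels that overlapped with the 5 PTE- libraries in which it was readily counted (3.37 to 9.10 TPM). The fitted log2 fold change was 1.72 (SE 1.56, 95% interval -1.52 to 4.96, edgeR p = 0.282). It was 1.08 without PTE+ mouse a8_10, and limma voom with quality weights gave 3.12 (unadjusted limma p = 0.0419, with 6.5% of all genes under 0.05). On the log2(CPM + 1) scale, where CPM is the count relative to library size after TMM scaling, the group means differed by 2.36 (exact permutation p = 0.0323). That difference was 2.74 among mice whose names start with a8 and 2.11 among those with a9, a prefix whose meaning the labels do not give. Of all genes tested, 4.38% had an exact p under 0.05 in this comparison. The number of detected genes was 13859 to 15028 in the PTE+ and 11756 to 15315 in the PTE- libraries. Without PTE- mice a9_14 and a9_20, whose libraries had the fewest detected genes of this hemisphere, the exact permutation p was 0.0723 (difference 1.88), and the part of gene detection in the result was not tested further.

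Acvrl1 stood at 25.99, 43.4, 57.4, 98.0 and 153 TPM in the contralateral PTE+ libraries. In the PTE- libraries it ranged from 0 to 88.1 TPM, with a median of 29.4. The groups overlapped, and the log2 fold change was 0.94 (SE 0.85, 95% interval -0.83 to 2.71, edgeR p = 0.284). Without PTE+ mouse a8_10, the highest library, it was 0.45. The 11 endothelial markers summed to 644 to 3736 CPM in the same PTE+ libraries (median 1678) and to 359 to 1849 CPM in the PTE- libraries (median 921), and their part in this value was not tested.

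Tgfb1, the ligand that microglia and other immune cells are known to make, had unlike ranges in these groups of 5 and 10 libraries. The spread itself was not tested. It lay within 2.77 to 4.24 TPM in all 5 contralateral PTE+ libraries, whereas the PTE- libraries ranged from 0.15 to 7.68 TPM around a median of 0.655. In the PTE- group 1 library exceeded the PTE+ range and 9 lay below it, the nearest at 2.76 TPM. In edgeR the log2 fold change was 0.84 (SE 0.98, edgeR p = 0.399), and the difference on log2(CPM + 1) was 0.99 (exact permutation p = 0.0576).

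For PTE- against sham in the contralateral hippocampus, Tgfb2 had the smallest p. Sham libraries held 1.05, 11.4, 24.4, 29.3 and 38.3 TPM. PTE- libraries ranged from 15.5 to 68.7 TPM with a median of 31.6. The low sham value belonged to mouse a8_16, whose library also held 0.17 TPM of Smad4, 0.04 TPM of Tgfbr2 and no count of Smad3 or Smad7. For Tgfb2 edgeR gave a log2 fold change of 0.72 (SE 0.48, 95% interval -0.26 to 1.71, edgeR p = 0.142). By exact permutation the difference was 1.04 on log2(CPM + 1) (exact permutation p = 0.0290, with 3.3% of all genes under 0.05). It was 1.88 within a8 mice and 0.49 within a9 mice. Without that sham library and the PTE- libraries of a9_14 and a9_20 the difference was 0.39 (exact permutation p = 0.255), so that it was no longer under 0.05 without the libraries with the fewest detected genes. Without sham mouse a8_16 the fitted value of Tgfb2 was 0.43. Tgfbr1, next by p, had a log2 fold change of -0.95 (SE 1.12, edgeR p = 0.402), which was -0.38 without that library, with 0.89, 0.90, 5.20, 7.71 and 8.80 TPM in sham libraries and a median of 1.05 TPM in PTE- libraries (0.02 to 7.21).

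For PTE+ against sham in the contralateral hippocampus, Acvrl1 and Tgfb2 were first by p. Sham libraries held 12.2, 25.5, 39.3, 75.4 and 92.6 TPM of Acvrl1, with 3 of 5 inside the PTE+ range given above and 2 below it. Its log2 fold change was 0.60 (SE 1.02, edgeR p = 0.560), and that of Tgfb2 was 0.28 (SE 0.53, edgeR p = 0.605). Both depended on single libraries. Acvrl1 stood at 0.11 without PTE+ mouse a8_10, at 0.34 without sham mouse a9_11 and at 1.03 without sham mouse a8_15. Tgfb2 turned to -0.0156 without sham mouse a8_16 and stood at 0.50 and 0.48 without sham mice a8_15 and a9_10.

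In the ipsilateral hippocampus, Smad3 and Tgfbr1 were first by p between PTE+ and PTE-. The 4 PTE+ libraries held 0.45, 1.48, 2.20 and 6.86 TPM of Smad3. The 8 PTE- libraries ranged from 1.49 to 30.02 TPM with a median of 5.97, and sham libraries from 3.42 to 7.69 TPM with a median of 4.47. Smad3 thus lay below the sham range in 3 of 4 PTE+ libraries and also in PTE- libraries a9_14 (2.09 TPM) and a9_15 (1.49 TPM). PTE- libraries a9_16 and a8_11 lay above that range. In PTE+ library a9_19 Smad3 was at the counting limit (0.0590 CPM), as were Tgfbr2 and Acvrl1. PTE- library a8_14 held 14.6 TPM from 77 counts, and at 1.66 CPM it was the lowest of its group on that scale, below the sham libraries (10.5 to 27.8 CPM). The log2 fold change of PTE+ against PTE- was -1.81 (SE 1.197, 95% interval -4.32 to 0.70, edgeR p = 0.147). It was -0.77 without PTE- mouse a8_11, whose library had the fewest detected genes, and -2.82 without PTE+ mouse a9_17. Against sham the difference on log2(CPM + 1) was -1.76 (exact permutation p = 0.0556).

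Tgfbr1, the type I receptor upstream of Smad3, stood at 3.20, 6.65, 7.91 and 18.5 TPM in ipsilateral PTE+ libraries. It ranged from 0 to 5.61 TPM in PTE- libraries, with a median of 2.96, and from 0.10 to 4.98 TPM in sham libraries, with a median of 2.78. The 3 upper PTE+ libraries thus exceeded all 13 others, and the lowest lay among them. Against PTE- the log2 fold change was 1.16 (SE 1.14, 95% interval -1.23 to 3.55, edgeR p = 0.321). On log2(CPM + 1) the difference from PTE- was 1.32 (exact permutation p = 0.109) and from sham 1.58 (exact permutation p = 0.0635).

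Smad4 gave the smallest edgeR p of all members, between ipsilateral PTE- and sham. Sham libraries held 29.8, 50.9, 80.6, 105 and 119 TPM, and PTE- libraries ranged from 34.8 to 71.0 TPM with a median of 48.7. The groups overlapped, with 3 sham libraries above every PTE- library and 1 below every PTE- library. The log2 fold change was -0.60 (SE 0.35, 95% interval -1.33 to 0.13, edgeR p = 0.100). The unadjusted edgeR p fell below 0.05 when either PTE- mouse a8_11 (0.0265, log2 fold change -0.74) or sham mouse a8_15 (0.0346, -0.80) was left out, and the adjusted p stayed above 0.99 in both fits. Smad7, next by p, had a log2 fold change of -0.94 (SE 1.27, edgeR p = 0.469) at levels of 0 to 5.20 TPM in PTE- and 0.59 to 2.96 TPM in sham libraries.

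Against ipsilateral sham libraries, PTE+ libraries had log2 fold changes of -0.45 for Smad4 (SE 0.42, edgeR p = 0.292, and -0.29 without PTE+ mouse a8_10) and 1.80 for Tgfb3 (SE 1.66, edgeR p = 0.292). Tgfb3 stood at 3.62, 4.69, 14.9 and 25.8 TPM in PTE+ libraries and at 0, 1.02, 2.34, 4.02 and 7.78 TPM in sham libraries, so that 2 of 4 PTE+ libraries exceeded all sham libraries. As contralaterally, no PTE+ library lacked Tgfb3, while 2 ipsilateral PTE- libraries and 1 sham library were at the counting limit. These were PTE- a8_11 and a8_14 and sham a9_9, the libraries with the fewest detected genes of all (9020, 11271 and 10886). None of the 6 libraries with the fewest detected genes was PTE+, and the part of gene detection was not tested.

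The levels on the 2 sides were compared in the 17 mice with both libraries. The edgeR fit held no term for the mouse, whereas the sign-flip tests were paired within mice. None of the 10 genes had an unadjusted edgeR p under 0.05 in PTE+, PTE- or sham mice, beside 2.93%, 4.56% and 2.05% of the 15731 genes tested. With the mouse as a block in edgeR, 0 members had such a p in these groups, beside 0.763%, 2% and 0.331% of all genes. By edgeR 0 of all genes (0.0%) had an adjusted p under 0.05 in any of them, where DESeq2 with the mouse as a block called 277, 421 and 59 genes, 0 of them members. In PTE+ mice Tgfb1 was first by p. Its contralateral and ipsilateral levels were 4.199 and 2.10 CPM in mouse a8_10, 5.16 and 1.85 CPM in a9_17, 3.71 and 0.469 CPM in a9_18, and 3.79 and 0.0975 CPM in a9_19. The ipsilateral value was the lower in 4 of 4 mice, by 1.42 ± 0.61 on the log2(CPM + 1) scale (SD, n = 4). The exact sign-flip permutation p was 0.125, the smallest that 4 mice allow, and edgeR gave a log2 fold change of -1.90 (SE 1.31, p = 0.156). Smad3 and Smad7 were also lower ipsilaterally in 4 of 4 PTE+ mice. For Smad3 the log2 fold change was -1.32 (SE 1.55, edgeR p = 0.401) and -2.26 without a9_17, and 1 mouse (a9_19) moved most, from 20.9 to 0.0585 CPM. Having every mouse on 1 side was frequent in a group this small, at 12.1% of all genes.

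In PTE- mice Tgfb2 was lower ipsilaterally in 7 of 8 mice, by a mean of 1.13 ± 1.83 on log2(CPM + 1) (exact sign-flip permutation p = 0.0547, smallest possible 0.00781). Most of that mean came from mouse a8_11, in which Tgfb2 went from 40.0 to 0 CPM, while the other 7 differences lay between -1.70 and 0.55. The fitted value was -0.74 on the log2 scale (SE 0.67, edgeR p = 0.273). Smad3 was higher ipsilaterally in 7 of 8 PTE- mice, by 0.84 ± 1.68 (exact sign-flip permutation p = 0.195), with a log2 fold change of 1.09 (SE 1.09, edgeR p = 0.324) that was 0.22 without a8_11. Of all genes, 5.63% had at least 7 of the 8 mice on 1 side.

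In sham mice Smad4 and Smad2 were first by p. Smad2 was lower ipsilaterally in 5 of 5 mice (exact sign-flip permutation p = 0.0625, the smallest that 5 mice allow), as 4.67% of all genes were in 1 direction or the other. Its differences were -0.05, -0.06 and -0.43 in 3 mice, -1.26 in a8_16 and -4.82 in a9_9, whose ipsilateral library held no count of Smad2. Smad4 was higher ipsilaterally in 4 of 5 sham mice, by 6.33 in a8_16 and between -0.21 and 0.86 in the others, and 30.4% of all genes had at least 4 of the 5 mice on 1 side. In edgeR the log2 fold changes were -0.72 for Smad2 (SE 1.09, edgeR p = 0.509) and 0.69 for Smad4 (SE 0.61, edgeR p = 0.262), and without a8_16 they were -0.45 and 0.45.

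**Figure D4:**
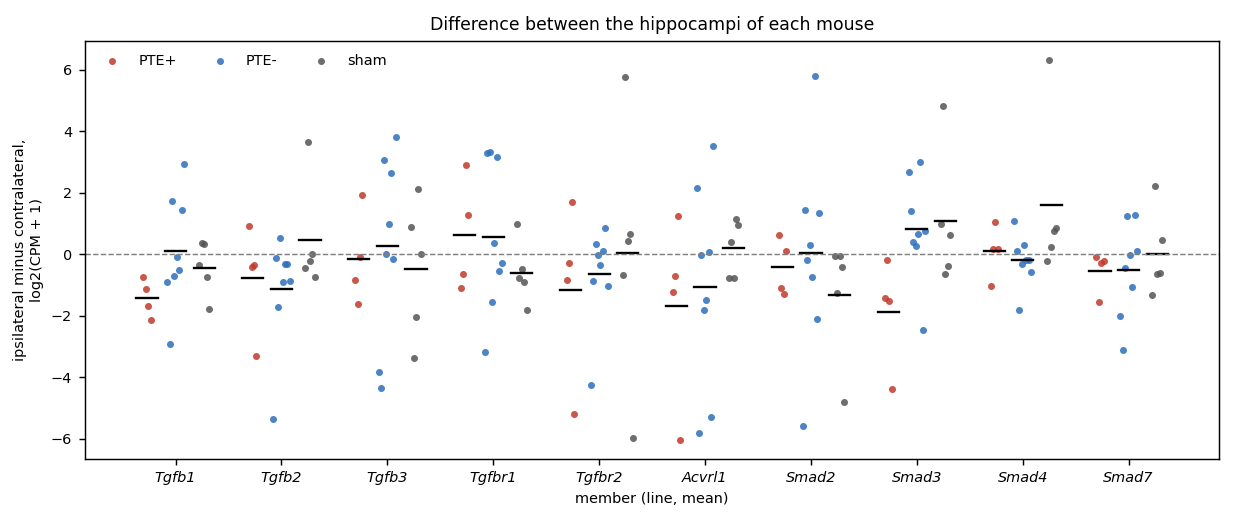
Ipsilateral minus contralateral level on the log2(CPM + 1) scale (y axis) for each gene (x axis) in the 17 mice with both libraries, coloured by group with the group mean as a line. Points beyond 4 in either direction come from genes that were at or near 0 in 1 of the 2 libraries of a mouse.

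Smad3 pointed in opposite directions in the injured groups, and the difference was tested as such. The side difference in PTE+ mice less that in PTE- mice was -2.41 on the log2 scale (SE 1.90, 95% interval -6.28 to 1.46, edgeR p = 0.214), where 2.94% of all genes had an unadjusted p under 0.05. Against sham mice it was -1.98 (SE 2.06, edgeR p = 0.345, with 2.66% of all genes). The side difference of PTE- against sham mice was smallest in p for Smad4, at -0.95 (SE 0.77, edgeR p = 0.226, with 3.13% of all genes). None of the 30 interaction tests of members had an unadjusted p under 0.05. With the mouse as a block in DESeq2, Smad3 and Tgfb1 had unadjusted DESeq2 p of 0.0238 and 0.0450 for PTE+ against PTE- (log2 values -3.92 and -2.74), and DESeq2 gave neither an adjusted p under 0.05. In that fit 8.26% of all genes had an unadjusted p under 0.05 and 255 an adjusted p under 0.05. The edgeR value of Smad3 was -1.52 without PTE- mouse a8_11.

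Across libraries, Acvrl1 varied together with marker genes of endothelial cells. On the log2(CPM + 1) scale it was correlated with the summed 11 endothelial markers in the 20 contralateral libraries (Pearson r = 0.654, permutation p = 0.00133, adjusted 0.00665, Spearman rho = 0.829, permutation p = 3e-05, adjusted 0.00015). In the 17 ipsilateral libraries, r was 0.822 (permutation p = 7e-05, adjusted 0.0007) and rho was 0.926 (permutation p = 1e-05, the smallest that 100000 resamples can give, adjusted 0.0001). Each hemisphere holds 1 library per mouse, and the adjustment covers the 10 relations set for members and marker lists. Without the 2 libraries farthest from the median marker sum, r was 0.521 (permutation p = 0.0136) and 0.646 (permutation p = 0.00191). With values centred on their group, r was 0.645 and 0.835. Within mice of the a8 prefix r was 0.871 (n = 8) contralaterally and 0.882 (n = 6) ipsilaterally, and within a9 mice 0.602 (n = 12) and 0.910 (n = 11). Without the 6 libraries with the fewest detected genes r was 0.811 and 0.914.

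Each of the 11 endothelial markers, among them Cldn5 of the tight junction and the receptors Flt1 and Kdr, had a positive Spearman correlation with Acvrl1 in both hemispheres. These ranged from 0.459 for Tek to 0.788 for Pecam1 contralaterally, and from 0.3995 for Emcn to 0.862 for Flt1 and Ly6c1 ipsilaterally. The 3 libraries at 0 counts of Acvrl1 on the ipsilateral side were those of PTE+ mouse a9_19 and PTE- mice a8_14 and a9_15. The first and the last of these had the lowest endothelial sums of the hemisphere (39.3 and 161 CPM against a median of 650 CPM). The library of a8_14 did not, at 427 CPM, above 4 libraries with 295 to 377 CPM that held Acvrl1. Contralaterally the library of PTE- mouse a9_20 had no count of Acvrl1 at 677 CPM of endothelial markers. The astrocyte markers of a9_19 lay within the range of the other libraries. The number of detected genes had a Spearman correlation of 0.245 with Acvrl1 contralaterally and 0.108 ipsilaterally, and of 0 and -0.0147 with the endothelial sum. For Acvrl1 it was 0.190 and -0.2 within a8 mice, and 0.622 and 0.232 within a9 mice. Relations of Acvrl1 with the summed astrocyte, microglial and mural (pericyte and smooth muscle) markers were added after the data had been seen. None had an adjusted permutation p under 0.05 over the 16 relations (Pearson r from -0.265 to 0.452, Spearman rho from -0.233 to 0.535). The highest rho was that with microglial markers contralaterally (permutation p = 0.0167, adjusted 0.0891). Ipsilaterally r with mural markers was 0.559 without the 2 farthest libraries (unadjusted permutation p = 0.0301).

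**Figure D5:**
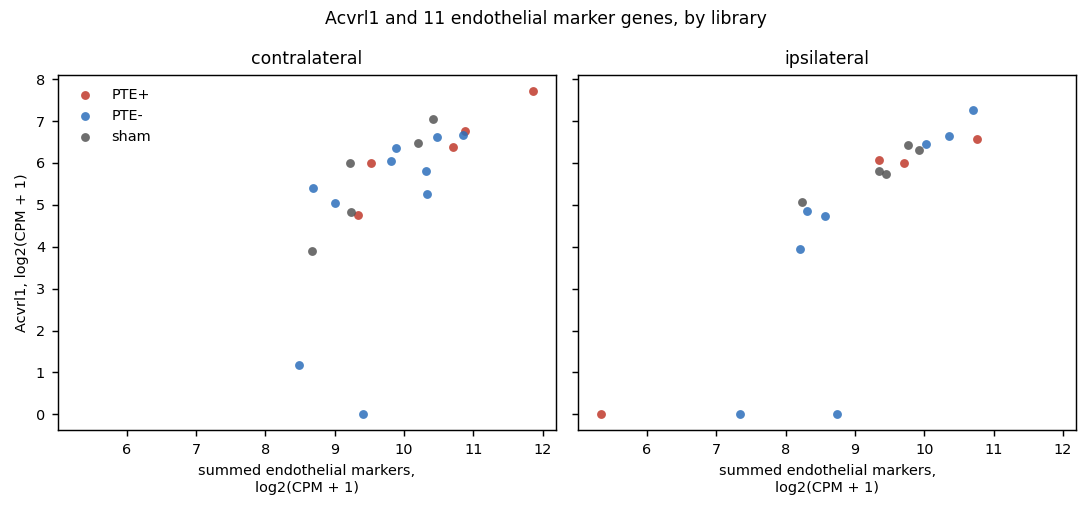
Acvrl1 (y axis) against the sum of 11 endothelial marker genes (x axis), both as log2(CPM + 1), in 20 contralateral and 17 ipsilateral libraries coloured by group. Libraries with a higher endothelial sum held more Acvrl1 in both hemispheres (r = 0.654 and 0.822).

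The other relations set for members and marker lists did not pass the adjusted threshold in either hemisphere. Tgfb1 had r of -0.026 and 0.058 with the summed microglial markers, and Tgfbr1 0.320 and -0.367. Tgfbr2, the type II receptor, had r of 0.187 and 0.201 with the endothelial sum. Tgfb2 had r of -0.422 and 0.504 with the astrocyte sum, and these were 0.0995 and -0.0696 without the 2 libraries farthest from the median sum, so that both rested on those libraries.

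Of the genes most like each member over the 20 contralateral libraries (highest Spearman correlation among 10918 genes), those of Acvrl1 also had high values in the ipsilateral libraries, which were not used to choose them. Car4, a carbonic anhydrase of capillary endothelium, had rho of 0.941 contralaterally and 0.767 ipsilaterally. Bsg (basigin) had 0.848 and 0.843, and Sox17, a transcription factor of arterial endothelium, 0.803 and 0.581. For the other 7 members with a median of at least 5 CPM, the 21 genes chosen in this way had contralateral values from 0.719 to 0.865 and ipsilateral values from -0.316 to 0.539. The 3 closest to Tgfb2 (Smarca1, Mtif3 and Abhd10) reached 0.795 contralaterally and at most 0.160 ipsilaterally, and those of Smad4 (Kdelc1, Mtor and Zc3h11a) were negative there. Tgfb1 and Smad7 were below 5 CPM in median and were not compared. Among themselves the 10 genes had a median Spearman correlation of 0.032 over 45 pairs contralaterally and 0.114 ipsilaterally. The highest contralateral value was that of Tgfb3 with Tgfbr1 (0.697, and 0.467 ipsilaterally). As a description, no common rise and fall of the 10 genes was visible across libraries, which share depth and detection.

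Another 74 genes of the pathway were read in the same fits: 21 that store or activate the ligands, 10 further receptors and co-receptors, 22 other Smads and intracellular regulators, and 21 target genes. Within a hemisphere 5 of 411 edgeR tests of these genes had an unadjusted p under 0.05, all from 3 genes of ligand storage and activation, and 0 had an adjusted p under 0.05. Of all genes, 1.23% to 2.21% had such an unadjusted p in these comparisons. None of the co-receptors, intracellular regulators or target genes had an unadjusted p under 0.05 in any of the 6 comparisons. Target genes had the most uneven signs between ipsilateral PTE+ and PTE- libraries, where 3 of 20 tested had a positive log2 fold change, beside 49.3% of all genes (median -0.29 beside -0.01). In ipsilateral PTE- against sham libraries 15 of 20 were positive, beside 51.5% of all genes (median 0.83 beside 0.02), and both comparisons use the same PTE- libraries. The list holds genes that fibroblasts and mural cells also express (Col1a1, Col1a2, Col3a1, Postn, Acta2 and Tagln). The 5 fibroblast markers averaged 409 ± 355 CPM in these PTE- and 183 ± 76.7 CPM in the sham libraries (SD). In the ipsilateral PTE+ libraries they averaged 339 ± 98.1 CPM. Their medians were 264 CPM in PTE- (highest library 1227), 154 CPM in sham and 315 CPM in PTE+ libraries. The 6 mural markers averaged 1591 ± 438 CPM in PTE-, 2260 ± 1113 CPM in sham and 1563 ± 662 CPM in PTE+ libraries. The part of either marker list in the counts of signs was not tested.

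The study's criteria are an unadjusted p below 0.05 with a change of 1.2-fold or more, where 1 of the compared groups averages above 5 TPM. By edgeR p, 2 of the 74 pathway genes met them in the 6 comparisons within a hemisphere. Ltbp4, which encodes a latent TGF-beta binding protein of the matrix, was one of these. It had a mean of 51.2 ± 29.4 TPM in the 5 contralateral PTE+ libraries and 21.2 ± 17.5 TPM in the 10 PTE- libraries (SD). The log2 fold change was 1.21 (SE 0.54, 95% interval 0.09 to 2.32, edgeR p = 0.0350, adjusted p = 0.9998), and 1.26% of all genes met the criteria in this comparison. Leaving out 1 library at a time gave values from 0.96 to 1.49. The unadjusted p rose above 0.05 without PTE+ mouse a8_10 or a9_17 or PTE- mouse a8_14, a9_13, a9_15 or a9_16. Ranges overlapped (21.8 to 87.9 and 2.72 to 54.8 TPM).

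Dcn, encoding the matrix proteoglycan decorin, which binds TGF-beta, was the other. It had a mean of 158 ± 131 TPM in the 8 ipsilateral PTE- libraries and 54.3 ± 34.8 TPM in the 5 sham libraries. The log2 fold change was 1.37 (SE 0.56, 95% interval 0.19 to 2.55, edgeR p = 0.0249, adjusted p = 0.9999), where 0.986% of all genes met the criteria. The PTE- libraries ranged from 66.4 to 455 TPM and the sham libraries from 7.91 to 93.3 TPM. Without PTE- mouse a9_16 the log2 fold change was 0.96 (edgeR p = 0.0775), and without sham mouse a9_9 it was 1.21 (edgeR p = 0.0599). Dcn is also a gene of fibroblasts, and the 5 fibroblast markers summed to 172 to 1227 CPM in these PTE- and 88.5 to 275 CPM in the sham libraries, and their part in the value was not tested.

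Thbs1, which encodes the ligand-activating matrix protein thrombospondin 1, was near its counting limit. It was above 3 counts in 4 of 5 contralateral PTE+, 2 of 10 PTE- and 0 of 5 sham libraries, and its highest group mean was 1.62 TPM on that side. It had an unadjusted edgeR p under 0.05 in the 3 contralateral comparisons (0.00807, 0.0329 and 0.00255), which share libraries, and an adjusted p above 0.99 in each. Thbs1 passed the contralateral filter on low counts only through these few libraries, mostly PTE+, so these p values are not separate evidence of a difference. Ipsilaterally it was above 3 counts in 2 of 4 PTE+, 4 of 8 PTE- and 2 of 5 sham libraries, and the ipsilateral group means were 0.117, 2.08 and 0.642 TPM. In the comparison of sides 5 of 216 edgeR tests of the 74 genes had an unadjusted p under 0.05 and 0 an adjusted p under 0.05, and they came from Acvr1b, Itgb3, Ltbp2 and Thbs1. Of all genes 2.05% to 4.56% had such an unadjusted edgeR p there. Between groups in that side difference the count was 6 of 216 (Acvr1b, Itgb3, Itgb8, Ltbp2 and Thbs1), beside 2.66% to 3.13% of all genes, and 0 had an adjusted p under 0.05.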

How the data were processed

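RNA was sequenced as paired reads on a NovaSeq. Per the methods, the authors trimmed reads with Trim Galore 0.6.4 and aligned them to the mouse genome mm10 with RSEM 1.2.28 and Bowtie2 2.4.1. The authors deposited RSEM's expected counts (estimated reads per gene) and TPM values, and they compared groups with DESeq2 1.36.0. Their annotation release is not given in the sources used here. Of 21975 gene identifiers, 21933 matched GENCODE M21, which gave symbols and positions (GRCm38). Positions of Smad2, Smad4 and Smad7 are not reported here.

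Expected counts were rounded and tested with edgeR 4.0.16 in R 4.3.3 (TMM scaling, filterByExpr, quasi-likelihood F test, Benjamini-Hochberg adjustment). Each hemisphere had its own fit of 3 groups, and sides were compared in a joint fit over the 17 mice with both libraries. That joint fit had no term for the mouse, so its p values for sides and side differences were not paired within mice. A fit with the mouse as a block was an alternative. The SE is the log2 fold change divided by the square root of F, and intervals are at 95%. Single genes were also tested by exact two-sided permutation (scipy 1.17.1) on log2(CPM + 1), and relations by permutation with 100000 resamples. DESeq2 1.42.0 and limma 3.58.1 were alternatives. The fits were tested on simulated data. The genes and lists were chosen with earlier results of these data known. The members with the smallest p in each comparison (2, or 1 for an interaction) were described in full, and further members given in a comparison (such as Tgfb1 in contralateral PTE+ against PTE-) and Thbs1 were chosen after their values were seen.

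Both libraries of a number came from the same mouse. Deviations from the group means correlated between the libraries of a mouse with a median r of 0.0809 (17 pairs, -0.0305 to 0.316), against -0.0187 for different mice of a group. No libraries were identical, and Spearman correlations within groups were 0.589 to 0.948.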

Additional observations from a re-analysis of the deposited data

Results flagged for a closer look

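Dixon's test for an outlying library was applied to 60 combinations of a gene and a group. In 16 the gap to the nearest other library, relative to the range, exceeded the 95% critical value. Normally distributed values would give about 1 in 20. Values at the counting limit, common among genes of similar abundance, depart from that distribution. The share of flags over all genes was not computed, so the count is not read as a trait of these genes. In 15 of them the library was the lowest of its group. All values here are on the log2(CPM + 1) scale.

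In the contralateral sham library of a8_16, Tgfb2 stood at 1.94, Tgfbr2 at 0.30, Smad3 at 0 and Smad4 at 0.49. In the ipsilateral sham library of a9_9, Tgfb2 stood at 3.84, Tgfbr1 at 0.15, Tgfbr2 at 0.0262 and Smad2 at 0. In the ipsilateral PTE- library of a8_11, Tgfb2 and Tgfbr1 stood at 0 and Tgfbr2 and Smad2 at 0.0727 each. The ipsilateral PTE+ library of a9_19 held Tgfbr2 at 0.0827 and Acvrl1 at 0. The contralateral PTE- library of a9_14 held Smad2 at 0.0546. The single high value was Tgfb2 in the contralateral PTE- library of a8_9, at 6.66.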

How the results depend on the processing

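Members with an adjusted p under 0.05 numbered 0 in all 12 comparisons under every alternative run, the mouse as a replicate block included (0 members in edgeR, also at an unadjusted p under 0.05). Counts at an unadjusted p under 0.05 moved in some. In contralateral PTE+ against PTE- they were 2 with limma voom and quality weights and 2 with limma on log2(TPM + 1) (Tgfb1 and Tgfb3), beside 6.5% and 5.54% of all genes, with 1 meeting the study's criteria in each (4.79% and 3.96% of all genes). In ipsilateral PTE+ against sham, limma on log2(TPM + 1) gave 1 (Tgfbr1, beside 2.29% of all genes), which also met the criteria (1.68%). Leaving out 1 library gave 0 to 1 in ipsilateral PTE- against sham for both counts (Smad4 without PTE- a8_11 or sham a8_15, beside 1.95% and 1.64% of all genes). DESeq2 with the mouse as a block gave 1 between the sides of PTE+ mice (Tgfb1) and 2 for the side difference of PTE+ against PTE- (Tgfb1 and Smad3), beside 7.45% and 8.26% of all genes. Alternatives without the 6 libraries with the fewest detected genes were chosen after seeing the data: that side difference then gave 1 (Tgfb1, beside 4.66% of all genes), and exact tests under 0.05 went from 2 to 0.

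Tgfb2 in contralateral PTE+ against sham turned to -0.0793 with voom and to -0.0155 without the 6 libraries, and ranged from -0.0156 (without sham a8_16) to 0.496 when 1 library was left out. Pearson r of Tgfb1 with microglial markers turned to -0.0557 (centred on groups) and -0.158 (without the 2 farthest libraries) ipsilaterally, and Tgfbr2 with endothelial markers to -0.309 without 2. Tgfb2 with astrocyte markers was -0.557 contralaterally when centred, and turned to 0.0995 and, ipsilaterally, -0.0696 without 2. Acvrl1 with astrocyte markers turned to -0.0200 contralaterally without 2 and to -0.0970 ipsilaterally when centred. The causes were not tested.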
